A study of Mus musculus with 12 samples.

Results

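Transcripts of 10 circadian clock genes were measured by RNA-seq in whole kidneys of mice: Arntl, Clock, Per1, Per2, Per3, Cry1, Cry2, Nr1d1, Nr1d2 and Dbp. They were found by their gene symbols and are 10 of the 24421 symbols in the deposited files, which hold 34600 transcripts. Where a symbol had more than 1 transcript, the one with the most counts over the 12 libraries was used. All 10 genes passed the filter on low counts in every comparison.

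The 12 libraries came from male mice at 6 weeks of age, labelled C57BL/6 (C57BL/6J background in the study's methods), and fall into 4 groups of 3, each library from a different mouse: wild type (WT) at baseline, Tet2-/- at baseline, WT after renal ischemia-reperfusion (IR) and Tet2-/- after IR. Tet2 encodes an enzyme that oxidises 5-methylcytosine in DNA, and the knockout was not restricted to a cell type of the kidney. Baseline mice were labelled as healthy controls and had no operation, whereas in IR mice the vessels of the right kidney were clamped for 60 min, the left kidney was removed, and the tissue was taken 24 h after reperfusion. Every comparison of IR with baseline therefore includes anaesthesia, surgery and the loss of the other kidney. The mice were kept in 12 h of light and 12 h of dark. The time of day at which a kidney was collected is not given in the sources used here for any library, so an effect of group on these genes and an effect of collection time cannot be told apart.

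Libraries held 51007366 to 107969888 counts on the transcripts used. Markers of kidney tubules were abundant in all 12 libraries, with a summed level of 6 proximal tubule markers between 530 and 2786 FPKM (fragments per length of transcript, scaled to the library's size). The Tet2 transcript was not lower in baseline libraries labelled Tet2-/- (9.24, 16.6 and 10.3 FPKM in replicates 1, 2 and 3) than in WT (9.15, 6.25 and 7.33 FPKM). After IR it was at 2.64, 3.197 and 1.76 FPKM in libraries labelled Tet2-/- and at 9.34, 3.97 and 3.85 FPKM in WT. The genotype is therefore given below as the labels state it. Values for single libraries are listed in the order of replicates 1, 2 and 3, and in bulk tissue fewer cells of a type and less RNA per cell cannot be told apart.

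The circadian clock is a feedback loop of transcription with a period of about a day that runs in nearly all cells, including those of the kidney tubule. The activators CLOCK and BMAL1 (the product of Arntl) bind E-boxes and switch on Per and Cry genes, whose products then inhibit the activators. They also switch on Nr1d1 and Nr1d2, whose products (REV-ERBα and REV-ERBβ) repress Arntl, and Dbp, whose product activates other genes through D-boxes. In many tissues Arntl peaks at roughly the opposite phase of the day from Dbp, Nr1d1 and Per genes. In the kidney, clock output includes transporters and enzymes of the tubule.

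The stretch from 250 bases before to 50 bases after each start site, as the files give it on the mm9 build, was searched on both strands for the letters of 4 elements known from clock genes. The E-box CACGTG was found in 2 of the 10 genes and in 7.76% of 24351 promoters of this length. The D-box TTATGTAA, the kind of element that DBP binds, was found in 2 of the 10 genes and in 0.801% of promoters. The core of the element bound by REV-ERB proteins (TAGGTCA, in 2.31% of promoters) and the cAMP response element (TGACGTCA, in 2.41%) were found in none of the 10, and no search letters overlapped each other in these genes. Only these exact letters were searched, and variant spellings of an element were not counted. The 250 bases before the start are printed for the 4 genes with a match, since they show where the searched letters lie. Matched letters are in capitals, 5′ to 3′ on the strand of the gene.
Per1 (chr11:68912208-68912457, plus strand): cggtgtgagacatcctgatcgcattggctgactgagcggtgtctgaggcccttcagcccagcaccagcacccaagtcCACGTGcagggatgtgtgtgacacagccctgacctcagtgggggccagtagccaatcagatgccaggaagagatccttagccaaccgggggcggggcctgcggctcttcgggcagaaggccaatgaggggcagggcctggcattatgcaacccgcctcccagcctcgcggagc
Cry1 (chr10:84647800-84648049, minus strand): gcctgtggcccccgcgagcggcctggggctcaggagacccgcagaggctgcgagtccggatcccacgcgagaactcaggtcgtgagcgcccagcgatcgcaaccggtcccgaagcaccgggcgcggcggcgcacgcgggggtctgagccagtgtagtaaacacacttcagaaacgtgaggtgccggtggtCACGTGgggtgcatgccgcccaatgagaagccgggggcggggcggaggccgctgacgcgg
Per2 (chr1:93355906-93356155, minus strand): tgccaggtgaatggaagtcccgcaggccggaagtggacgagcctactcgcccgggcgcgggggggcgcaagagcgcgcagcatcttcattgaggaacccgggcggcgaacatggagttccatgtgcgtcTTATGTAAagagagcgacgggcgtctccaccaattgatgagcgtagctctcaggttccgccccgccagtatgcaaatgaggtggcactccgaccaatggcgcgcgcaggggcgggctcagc
Per3 (chr4:150418775-150419024, minus strand): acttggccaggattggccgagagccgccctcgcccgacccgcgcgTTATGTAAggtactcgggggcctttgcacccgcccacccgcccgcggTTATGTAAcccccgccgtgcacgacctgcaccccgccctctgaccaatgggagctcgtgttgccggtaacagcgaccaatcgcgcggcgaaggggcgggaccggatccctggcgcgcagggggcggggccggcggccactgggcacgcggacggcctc
Per1 held an E-box whose first base lay 173 bases before the start, and Cry1 held an E-box 60 bases before it. Per2 held a D-box 121 bases before its start, and Per3 held a pair of D-boxes 205 and 158 bases before its start. Arntl, Clock, Cry2, Dbp, Nr1d1 and Nr1d2 had none of these letters in the window. This says nothing about elements elsewhere in these genes, or about variant spellings in any of the 10.

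Per length of transcript, Dbp (NM_016974, chr7:52960617-52965573) was the most abundant of the 10 genes in WT baseline kidneys, at 78.9 ± 9.71 FPKM (SD, n = 3). It was followed by Nr1d1 (28.2 ± 5.56), Nr1d2 (21.2 ± 5.04) and Per1 (19.6 ± 8.17), then by Per2 (10.03 ± 3.19), Per3 (8.13 ± 2.27), Cry2 (5.57 ± 0.990) and Clock (3.66 ± 0.983). The libraries of Nr1d1 lay just above those of Nr1d2, while those of Nr1d2 and Per1 overlapped. The libraries of Per1 and Per2, of Per2 and Per3 and of Cry2 and Clock also overlapped. Arntl (1.19 ± 0.698) and Cry1 (1.19 ± 0.400) were lowest and did not differ beyond their spread. The 2 lowest genes rest on few reads, from 72 to 775 counts per library for Arntl (NM_007489, chr7:120350979-120457640) and from 121 to 1101 for Cry1 (NM_007771, chr10:84594445-84647799). The other 8 genes had at least 1053 counts in each library.

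**Figure D1:**
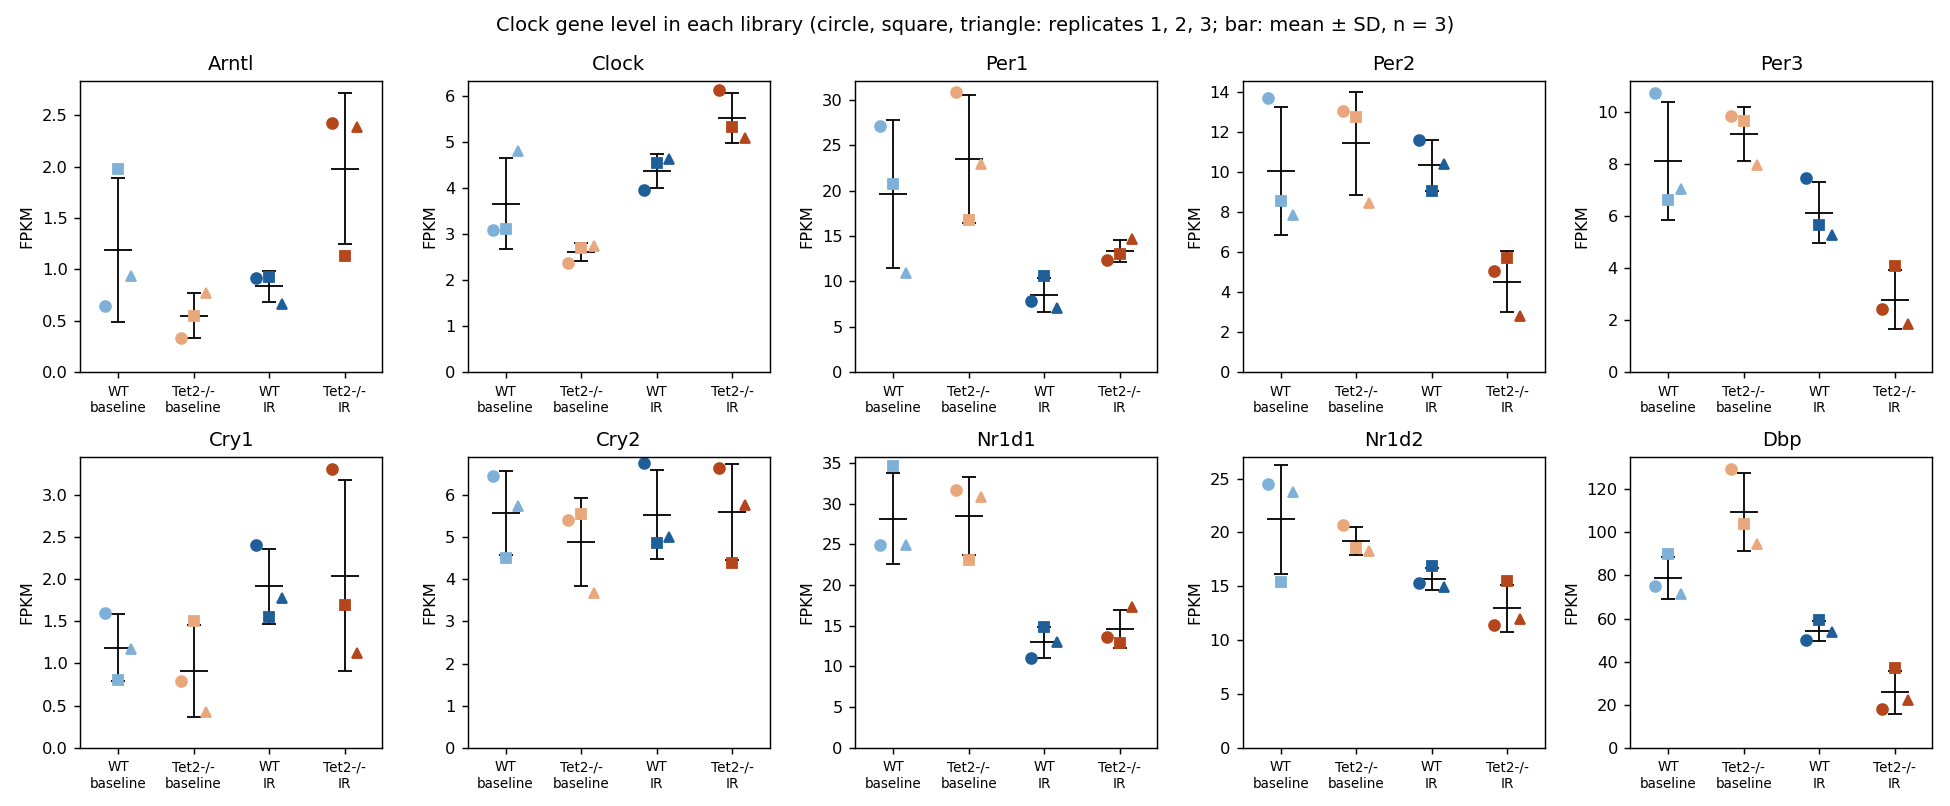
Level of each of the 10 clock genes in FPKM (linear axes from 0) in the 4 groups, with each library as a point (circle, square and triangle for replicates 1, 2 and 3) and the mean ± SD of 3 libraries as a bar. Dbp, Per2 and Per3 are lowest in the group labelled Tet2-/- after IR, Nr1d1 is lower in both IR groups, and Cry2 covers about the same range in all 4 groups.

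IR in WT kidneys was compared with WT baseline to ask how the clock genes stood 1 day after injury. Of the 10 genes, Nr1d1 alone was called, at a log2 fold change of −1.18 ± 0.18 (SE; 2.26-fold lower, adjusted p = 0.0238). Calls needed an absolute log2 fold change over 1 and an adjusted p under 0.05 from edgeR's quasi-likelihood test, with Benjamini-Hochberg adjustment over the 16015 genes tested. Of all genes tested, 1.46% were called higher and 0.887% lower, against 0 and 1 of the 10 clock genes. The median log2 fold change of the 10 was −0.49, beside −0.03 for all genes. An unadjusted p below 0.05 was reached by 4 of the 10 genes, all of them lower, and by 22.7% of all genes.

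Nr1d1 (NM_145434, chr11:98629246-98636691), which encodes REV-ERBα, was at 24.9, 34.6 and 24.95 FPKM in WT baseline libraries and at 11.04, 14.9 and 12.9 FPKM after IR. The highest IR library lay well below the lowest baseline library. Without 1 library the adjusted p of Nr1d1 ran from 0.0348 to 0.0814, and the call was kept only without WT IR replicate 1. It was 0.0641, 0.0550 and 0.0617 without WT baseline replicates 1, 2 and 3, and 0.0814 and 0.0737 without WT IR replicates 2 and 3.

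Per1 (NM_011065, chr11:68912458-68923459), a period gene that light and hormones can induce quickly, was at 27.1, 20.8 and 10.9 FPKM at baseline and at 7.79, 10.6 and 7.06 FPKM after IR. All 3 IR libraries were below all baseline libraries, but WT baseline replicate 3 stood close to them. Its log2 fold change of −1.27 ± 0.32 did not pass (adjusted p = 0.0799), whereas it passed with DESeq2 (adjusted p = 0.00355), with the replicate number as a block (0.0318), with all 12 libraries in the fit (0.0315) and without WT baseline replicate 3 (0.0466). Dbp was at 75.2, 89.8 and 71.5 FPKM at baseline and at 50.02, 59.3 and 53.9 FPKM after IR, again without overlap, with a log2 fold change of −0.59 ± 0.13 (adjusted p = 0.0669). In all, 3 of the 10 genes had lower IR libraries without overlap on the scale of normalized counts (CPM), Per1, Dbp and Nr1d1, and 0 had higher ones, where 14.5% and 14.8% of all genes did.

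The remaining genes gave log2 fold changes that did not pass the test in WT kidneys. They were −0.58 ± 0.41 for Arntl (adjusted p = 0.441), −0.50 ± 0.20 for Nr1d2 (0.189), −0.47 ± 0.22 for Per3 (0.247) and 0.62 ± 0.31 for Cry1 (0.285). The values nearest to 0 were 0.20 ± 0.21 for Clock, −0.08 ± 0.19 for Cry2 and −0.02 ± 0.23 for Per2. The sign for Per2, Cry2 and Arntl turned with the library left out, for Arntl only without WT baseline replicate 2 (0.0187).

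In kidneys labelled Tet2-/-, IR went with lower Dbp, Per3, Per2, Nr1d1 and Per1 and with higher Arntl. Of the 10 genes, 5 were called lower and 1 higher with the same test and limits, while 11.6% and 12.7% of 16359 genes were. With the limit on adjusted p alone, Nr1d2 also fell and Clock also rose, which makes 6 lower and 2 higher against 20.3% and 22.9% of all genes. The groups did not overlap for these same 6 and 2 genes, as for 27.3% and 29.5% of all genes. The median log2 fold change of the 10 was −0.95, beside 0.04 for all genes. When libraries were scaled by their size alone and not by TMM, the median of all genes moved to 0.27, and the direction turned only for Cry2.

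Dbp, which encodes a D-box binding activator of output genes, was at 129, 104 and 94.8 FPKM at baseline and at 18.05, 37.2 and 22.04 FPKM after IR in these libraries. Replicate 2 after IR was the highest of its group, yet remained far below all baseline libraries. Its log2 fold change of −2.36 ± 0.25 was 5.13-fold (adjusted p = 0.000503).

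Per3 (NM_011067, chr4:150377764-150418774), a period gene thought to be dispensable for the core loop, was at 9.84, 9.67 and 7.96 FPKM at baseline and at 2.43, 4.07 and 1.86 FPKM after IR. Per2 (NM_011066, chr1:93312559-93355905), a repressor needed for the rhythm, was at 13.05, 12.7 and 8.47 FPKM and at 5.05, 5.702 and 2.797 FPKM. Neither gene's groups overlapped. Per3 fell by 1.99 ± 0.24 and Per2 fell by 1.61 ± 0.25 on the log2 scale (adjusted p = 0.000726 and 0.00224), and without any 1 library both calls were kept. Per1 was at 30.9, 16.8 and 22.9 FPKM and at 12.3, 13.1 and 14.6 FPKM and fell by 1.07 ± 0.23 (adjusted p = 0.00790). Its fold change came under the limit without replicate 1 at baseline (−0.84) or replicate 2 after IR (−0.99), with library sizes alone (−0.85), and with limma on log2(FPKM + 1) (−0.74) or log2(FPKM + 0.1) (−0.77).

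Nr1d1 was at 31.7, 23.02 and 30.8 FPKM at baseline and at 13.6, 12.9 and 17.3 FPKM after IR, a log2 fold change of −1.21 ± 0.20 (adjusted p = 0.00275) that was −0.997 with library sizes alone and −0.92 and −0.96 with limma at pseudocounts of 1 and 0.1, within the fold limit. Nr1d2 (NM_011584, chr14:19036570-19071620), its paralog, was at 20.6, 18.6 and 18.3 FPKM and at 11.4, 15.5 and 11.95 FPKM. It fell by 0.83 ± 0.13 (adjusted p = 0.00203), which is less than the fold limit. All 3 IR libraries were below all baseline libraries for each of these repressors.

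Arntl, the activator that REV-ERB proteins repress, was at 0.333, 0.544 and 0.769 FPKM at baseline and at 2.42, 1.13 and 2.39 FPKM after IR. The groups did not overlap, and replicate 2 after IR was again the library nearest to the other groups. Arntl rose by 1.61 ± 0.44 on the log2 scale (3.05-fold, adjusted p = 0.0215). The call was lost without baseline replicate 1 (adjusted p = 0.0665) or 2 (0.0664) and without IR replicate 1 (0.0651), and with limma on log2(FPKM + 1) its fold change of 0.92 was within the limit. Clock (NM_001289826, chr5:76638893-76733817), the partner of BMAL1, was at 2.38, 2.71 and 2.75 FPKM and at 6.14, 5.33 and 5.098 FPKM and rose by 0.82 ± 0.13 (adjusted p = 0.00236). That is less than the fold limit. Clock passed both limits, at 1.05, with library sizes alone (adjusted p = 0.000594) and with limma on log2(FPKM + 0.1) (0.00167). Cry1, at 0.794, 1.501 and 0.428 FPKM and at 3.31, 1.69 and 1.12 FPKM, had overlapping groups and a log2 fold change of 0.91 ± 0.53 (adjusted p = 0.200). Cry2 (NM_009963, chr2:92243804-92274226) gave −0.05 ± 0.22 (adjusted p = 0.880).

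Markers of other cell types moved with this comparison too. The summed level of 6 proximal tubule markers was 2159 to 2786 FPKM at baseline and 530 to 780 FPKM after IR in libraries labelled Tet2-/-, and 4 of the 6 markers were called lower. The sum of 5 markers of injured tubules was 5.76 to 26.6 FPKM and then 2786 to 2988 FPKM, that of 7 neutrophil markers 1.77 to 2.63 FPKM and then 62.0 to 115 FPKM, and that of 4 glomerular markers 11.03 to 15.8 FPKM and then 33.9 to 70.0 FPKM. In WT kidneys the proximal tubule sum was 2363 to 2477 FPKM at baseline and 1451 to 1978 FPKM after IR, the injured tubule sum 14.3 to 19.8 FPKM and then 316 to 1096 FPKM with 3 of the 5 markers called higher, and the neutrophil sum 0.594 to 2.34 FPKM and then 3.83 to 8.68 FPKM, with Mpo and Elane at 0 after IR. Between the genotypes after IR, 4 of the 6 proximal tubule markers were called lower and 4 of the 7 neutrophil markers higher in libraries labelled Tet2-/-, and the interaction was negative for 4 of the 6. The sum of 7 adipocyte markers was 38.6 to 72.4 FPKM at baseline and 81.4 to 601 FPKM after IR in libraries labelled Tet2-/-, with 1 marker called higher and 3 called positive in the interaction, and 15.05 to 72.8 FPKM in WT after IR. The sum of 6 macrophage markers was 24.6 to 45.4 FPKM at baseline and 52.9 to 184 FPKM after IR in libraries labelled Tet2-/-, with 3 called higher and 1 lower, and 27.4 to 38.2 FPKM and then 27.6 to 44.6 FPKM in WT, with 2 called higher. Of these 6 markers, 2 were also higher in libraries labelled Tet2-/- than in WT after IR, and 1 interaction was positive. Of 6 markers of the loop, distal tubule and collecting duct, 2 were called lower with IR in libraries labelled Tet2-/-, where the ranges of their sum overlapped (1273 to 2041 FPKM and then 660 to 3084 FPKM). The sum of 4 liver markers was 28.5 to 98.8 FPKM at baseline and 11.1 to 21.9 FPKM after IR in libraries labelled Tet2-/-. In WT it was 50.8 to 79.3 FPKM and then 18.0 to 20.7 FPKM, and in each genotype 1 of the 4 was called lower. Of 6 lymphocyte markers, 1 was called lower with IR in libraries labelled Tet2-/- and 0 in WT. The part of cell composition in the clock gene values was not tested.

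At baseline, the kidneys labelled Tet2-/- were compared with WT kidneys, and 0 of the 10 clock genes were called in either direction with edgeR's quasi-likelihood test. Of 16086 genes, 0.0124% were called higher and 0% lower. Only Dbp of the 10 had an unadjusted p below 0.05, where 11.8% of all genes did, and DESeq2 also called 0 of the 10, but 1.74% of the 20096 genes it tested. Dbp was higher in all 3 libraries labelled Tet2-/- (129, 104 and 94.8 FPKM) than in the 3 WT libraries (75.2, 89.8 and 71.5 FPKM), with a log2 difference of 0.56 ± 0.15 (adjusted p = 0.265). Clock was lower without overlap (2.38, 2.71 and 2.75 against 3.09, 3.100 and 4.797 FPKM), with a log2 difference of −0.40 ± 0.20 (adjusted p = 0.464). These were 1 of 10 genes with higher and 1 of 10 with lower libraries without overlap, beside 7.93% and 10.8% of all genes. Arntl had the largest log2 difference of the 10, −1.02 ± 0.48 (adjusted p = 0.455), and its groups overlapped, since the WT libraries spread over 0.647, 1.98 and 0.936 FPKM. The median difference of the 10 genes was 0.03, beside 0.00 for all genes.

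After IR, 3 of the 10 genes were lower in kidneys labelled Tet2-/- than in WT kidneys: Per2, Per3 and Dbp. None was called higher. Of 16186 genes, 3.85% were called lower and 2.30% higher. Per2 was at 11.6, 9.02 and 10.4 FPKM in WT and at 5.05, 5.702 and 2.797 FPKM in libraries labelled Tet2-/-, a log2 difference of −1.32 ± 0.24 (2.49-fold, adjusted p = 0.0235). Per3 was at 7.46, 5.67 and 5.28 FPKM and at 2.43, 4.07 and 1.86 FPKM, −1.25 ± 0.26 (2.38-fold, adjusted p = 0.0304), and Dbp was at 50.02, 59.3 and 53.9 FPKM and at 18.05, 37.2 and 22.04 FPKM, −1.20 ± 0.24 (2.29-fold, adjusted p = 0.0288). No library of one group reached into the range of the other for these 3 genes.

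These calls were close to the threshold. Without 1 library the number called ran from 0 to 4, while the number over all genes, 996 with every library, ran from 294 to 942. It was 0 of the 10, and 294, 380 and 393 of all genes, without WT IR replicate 1, WT IR replicate 3 or replicate 1 labelled Tet2-/-, where the adjusted p of Per2 was 0.0729, 0.0657 and 0.0626, that of Per3 was 0.0924, 0.0685 and 0.0954 and that of Dbp was 0.0685, 0.0772 and 0.0649. Without replicate 3 labelled Tet2-/-, Per3 (0.0557) and Dbp (0.0653) did not pass, and without WT IR replicate 2 Dbp did not pass (0.0607). With library sizes alone, where the median of all genes moved from 0.04 to 0.14, the log2 difference of Per3 was −1.13 (adjusted p = 0.0564). With limma it was −0.94 (adjusted p = 0.0603) on log2(FPKM + 1) and −1.17 (0.0538) on log2(FPKM + 0.1), so that call was lost there too.

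Arntl and Per1 were higher after IR in all 3 libraries labelled Tet2-/- than in all 3 WT libraries, without passing the test. Arntl was at 0.913, 0.923 and 0.664 FPKM in WT and at 2.42, 1.13 and 2.39 FPKM in the libraries labelled Tet2-/-. Its log2 difference was 1.18 ± 0.37 (adjusted p = 0.0852, with DESeq2 0.0155, and 0.0412 without replicate 2 labelled Tet2-/-). Per1 was at 7.79, 10.6 and 7.06 FPKM and at 12.3, 13.1 and 14.6 FPKM, 0.57 ± 0.17 (adjusted p = 0.0732). On the CPM scale 2 of the 10 genes had higher and 4 lower libraries without overlap (Nr1d2 beside the 3 called), against 17.5% and 18.5% of all genes, although the FPKM ranges of Nr1d2 overlapped. Nr1d1, at 0.08 ± 0.19, Cry1, at −0.01 ± 0.41, and Cry2, at −0.07 ± 0.22, were nearest to 0, and each turned sign when some library was left out. The median of the 10 genes was −0.04, the same size as that of all genes with the opposite sign (0.04).

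The difference between the IR effects in the 2 genotypes was tested directly as the interaction of genotype and IR over all 12 libraries. It was negative (a lower IR effect in libraries labelled Tet2-/-) for 3 of the 10 genes and positive for 0, at an adjusted p under 0.05 over 16741 genes, of which 5.39% were called negative and 3.79% positive. The difference on the log2 scale was −1.73 ± 0.29 for Dbp (adjusted p = 0.00723), −1.56 ± 0.37 for Per2 (0.0291) and −1.48 ± 0.34 for Per3 (0.0248). For Per2 it joined an IR effect near 0 in WT kidneys to a 3.05-fold fall in those labelled Tet2-/-. For Arntl it was 2.23 ± 0.65 (adjusted p = 0.0533) and for Clock 0.67 ± 0.26 (0.130). Baseline differences between the genotypes enter the interaction too. These were 0.56 for Dbp, 0.28 for Per2, 0.26 for Per3 and −1.02 for Arntl, none of them called. Arntl passed with DESeq2 (adjusted p = 0.00932), library sizes alone (0.0413), a filter at a mean FPKM of 1 (0.0495) and limma on log2(FPKM + 0.1) (0.0498), and Clock with library sizes alone (0.0470). With limma on log2(FPKM + 1), Per2 (−1.26, adjusted p = 0.0510) and Per3 (−1.12, 0.0529) did not pass. For Nr1d1 it was 0.01 ± 0.28 (adjusted p = 0.990), and for Per1 0.25 ± 0.42 (0.746). The interaction shares its libraries with the comparisons above and adds no separate measurement.

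Dbp kept this call without any 1 library. Per2 lost it without WT baseline replicate 2 (adjusted p = 0.0551) or 3 (0.0618), baseline replicate 1 (0.0651) or 2 (0.0567) labelled Tet2-/-, and WT IR replicate 1 (0.0667) or 3 (0.0631). Per3 lost it without WT baseline replicate 3 (0.0542), baseline replicate 1 labelled Tet2-/- (0.0541), WT IR replicate 1 (0.0614) or IR replicate 1 labelled Tet2-/- (0.0547). Arntl gained it without WT baseline replicate 1 (0.0420) or IR replicate 2 labelled Tet2-/- (0.0371).

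WT baseline replicates 2 and 3 also held the most adipocyte RNA among baseline libraries, with 134 and 274 FPKM over 7 markers, beside 59.7 FPKM in WT replicate 1 and 38.6 to 72.4 FPKM in those labelled Tet2-/-. With both of them left out, no interaction of the 10 genes passed edgeR's test (Dbp −1.84, adjusted p = 0.0768, Per2 −1.15, 0.218, Per3 −1.13, 0.202), in a fit that assumes the single remaining WT baseline library to vary like the others. That fit called 10 of 17237 genes in all, against 1536 of 16741 with every library.

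**Figure D2:**
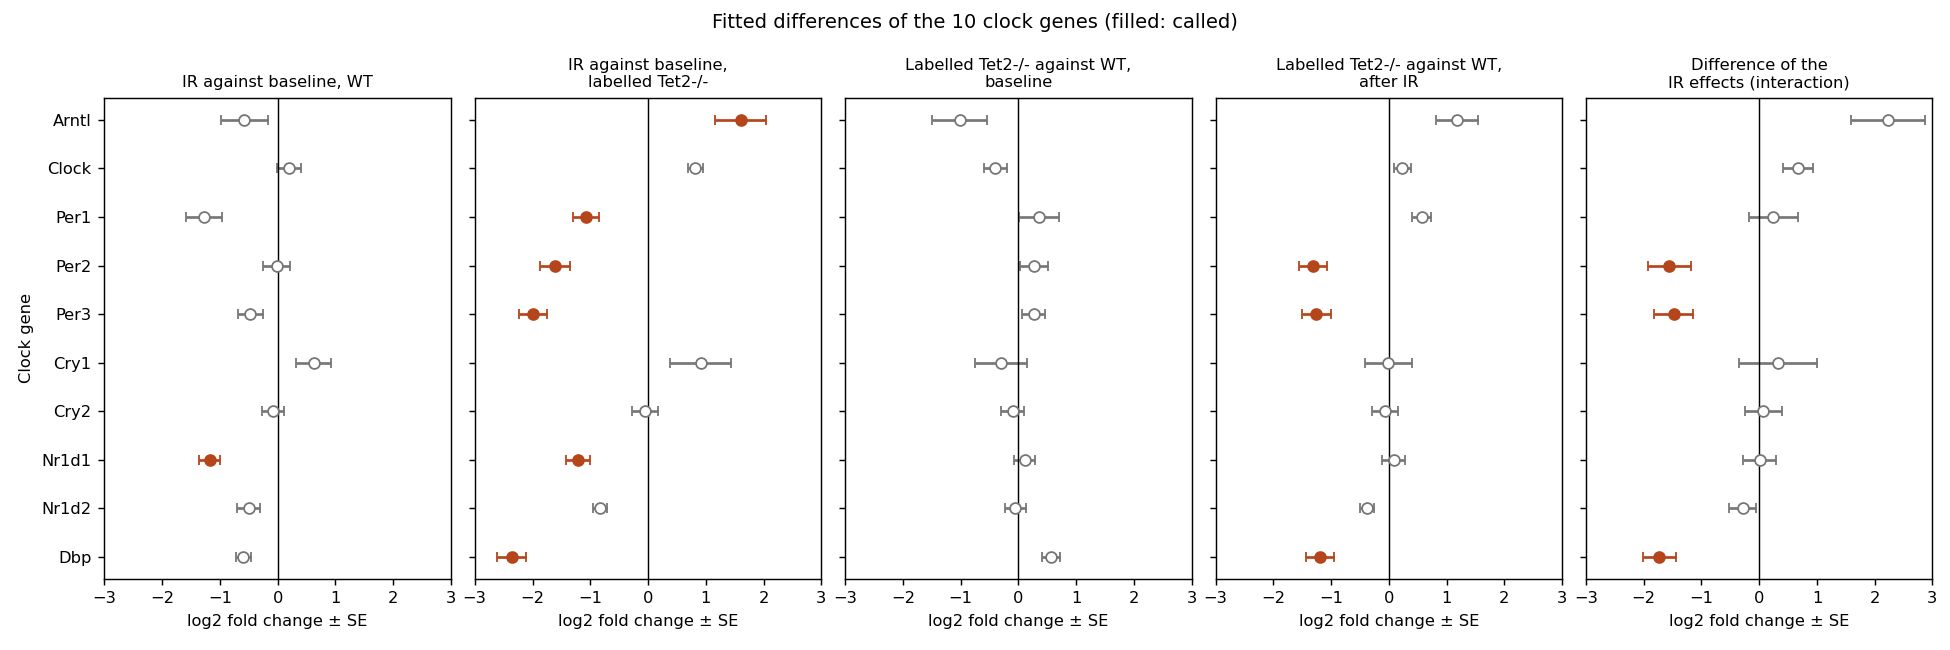
Fitted log2 fold change ± SE of the 10 clock genes in each of the 4 comparisons and in the interaction, with filled points for called genes. In the panel for IR in libraries labelled Tet2-/-, 5 filled points lie below 0 and Arntl lies above, and Clock and Nr1d2 are open because they passed on the adjusted p but not on the fold limit.

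The ratio of 2 genes within a library does not depend on its scaling. Dbp and Nr1d1 were each set against the activator Arntl, and Per2 against Cry1, another repressor. The log2 ratio of Dbp to Arntl in FPKM was 6.86, 5.51 and 6.25 in WT baseline libraries and 8.60, 7.58 and 6.95 in those labelled Tet2-/-. After IR it was 5.78, 6.00 and 6.34 in WT and 2.90, 5.03 and 3.21 in those labelled Tet2-/-. The last group lay below all other libraries, and its replicate 2 came nearest to them. The WT libraries at baseline and after IR (6.21 ± 0.68 and 6.04 ± 0.28, SD, n = 3) overlapped.

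The log2 ratio of Nr1d1 to Arntl was 4.71 ± 0.57 in WT baseline and 5.77 ± 0.70 in baseline libraries labelled Tet2-/-, and 3.96 ± 0.35 and 2.95 ± 0.52 after IR. Here the WT baseline (4.13 to 5.27) and WT IR (3.60 to 4.28) libraries overlapped, while the libraries labelled Tet2-/- after IR (2.49 to 3.51) lay below all others. The log2 ratio of Per2 to Cry1 was 0.61 to 1.75 in libraries labelled Tet2-/- after IR, 2.26 to 2.55 in WT after IR and 2.75 to 4.31 at baseline. The 3 ratios were not tested, since they combine genes already tested, and an exact permutation test of 3 against 3 libraries cannot give a p under 0.1.

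**Figure D3:**
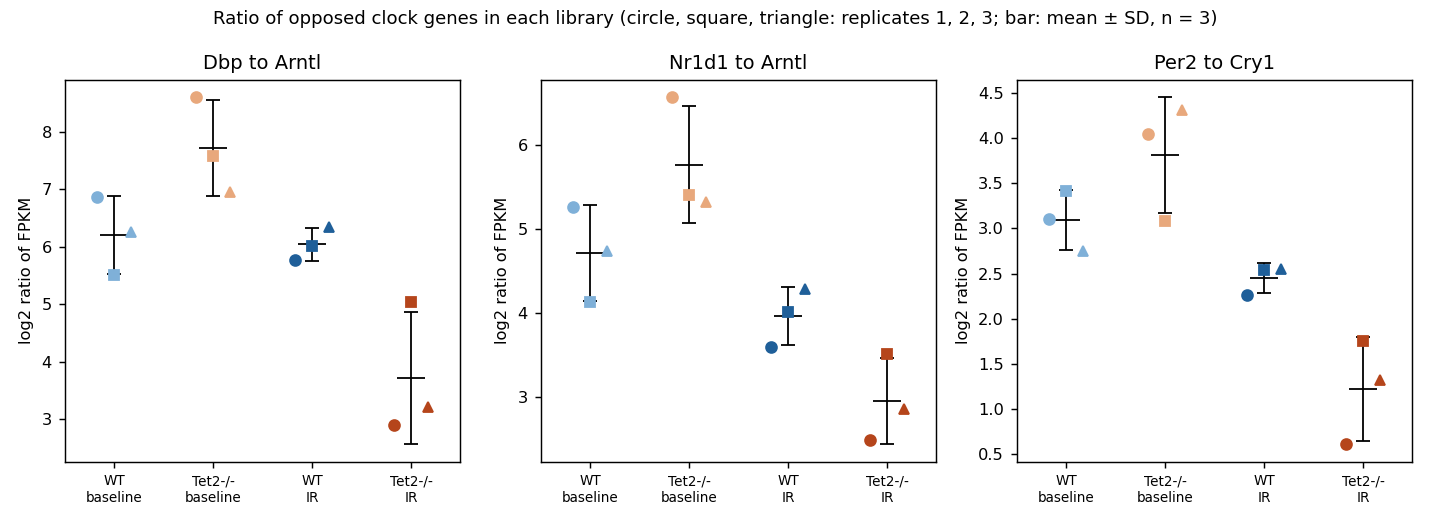
log2 ratio of FPKM of Dbp to Arntl, Nr1d1 to Arntl and Per2 to Cry1 in each library (circle, square and triangle for replicates 1, 2 and 3) with the mean ± SD of 3 libraries per group; axes do not start at 0. In all 3 panels the libraries labelled Tet2-/- after IR are lowest, with the Dbp to Arntl ratio between 2.90 and 5.03.

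A further 28 genes of the clock were examined as a list, and 25 genes known as clock output, some of which are on both lists. In WT kidneys after IR, 1 of the 28 was called higher and 1 lower, with a median log2 fold change of 0.06, and 0 and 1 of the 25 output genes, with a median of −0.06 (all genes −0.03, of which 1.46% were called higher and 0.887% lower). In kidneys labelled Tet2-/-, 3 of 28 were higher and 3 lower (median 0.27) and 1 of 25 output genes was higher and 7 lower (median −0.18, all genes 0.04, of which 12.7% were called higher and 11.6% lower). At baseline, the genotypes differed for 0 of either list with edgeR's quasi-likelihood test (medians −0.11 and 0.10, all genes 0.00, of which 0.0124% and 0% were called). After IR, 1 of 28 was higher and 3 lower in libraries labelled Tet2-/- (median 0.13), and 1 of 25 output genes higher and 5 lower (median −0.16, all genes 0.04, of which 2.30% were called higher and 3.85% lower). The interaction was positive for 2 and negative for 2 of the 28 (median 0.25) and positive for 0 and negative for 4 of the 25 (median −0.11, all genes 0.10, of which 3.79% were called positive and 5.39% negative).

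Ciart, which encodes a repressor of CLOCK and BMAL1 and is on both lists, had the largest fall after IR among the called genes of these lists. It was at 21.2, 19.6 and 7.65 FPKM in WT and at 25.6, 14.2 and 20.6 FPKM in libraries labelled Tet2-/- at baseline, and at 4.34, 4.26 and 4.13 FPKM and 1.29, 1.702 and 1.53 FPKM after IR. WT baseline replicate 3, low here, was also the lowest baseline library for Per1 and the highest for Clock. Ciart fell by 1.98 ± 0.36 in WT (adjusted p = 0.0381) and fell by 3.99 ± 0.25 in libraries labelled Tet2-/- (9.47e-05), an interaction of −1.97 ± 0.45 (0.0238). In WT the call was kept only without WT baseline replicate 3, and the adjusted p reached 0.146 without WT IR replicate 2. With limma the WT call was lost at both pseudocounts (adjusted p = 0.0610 with 1 and 0.0501 with 0.1), and the interaction was lost with a pseudocount of 1 (−1.45, 0.0635). The interaction was not called without baseline replicate 1 (0.0556) or 3 (0.0553) or IR replicate 1 (0.0540) labelled Tet2-/- or without WT IR replicate 3 (0.0504).

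Hlf and Tef encode the other PAR bZIP factors that bind D-boxes like DBP does. Tef lay outside the rule for naming genes and was chosen after its values were seen. Hlf was at 20.97, 10.8 and 16.98 FPKM in WT baseline, 12.5, 14.7 and 14.02 FPKM in baseline libraries labelled Tet2-/-, 18.7, 11.2 and 16.2 FPKM in WT after IR and 3.96, 3.86 and 2.54 FPKM in those labelled Tet2-/- after IR. Only the last group stood apart. In libraries labelled Tet2-/- Hlf fell by 2.26 ± 0.17 with IR (adjusted p = 0.000154), its genotype difference after IR was −2.27 ± 0.25 (0.0103) and its interaction −2.08 ± 0.37 (0.00878), and all 3 calls were kept without any 1 library. Tef was at 115, 86.1 and 72.4 FPKM and 115, 92.7 and 102 FPKM at baseline and at 73.6, 47.3 and 60.2 FPKM and 20.9, 31.5 and 31.7 FPKM after IR, in the same order of genotypes. It fell by 2.13 ± 0.21 with IR in libraries labelled Tet2-/- (adjusted p = 0.000387), with an interaction of −1.44 ± 0.32 (0.0215) that was not called without baseline replicate 1 (0.0506) or 3 (0.0501) labelled Tet2-/- or without WT IR replicate 1 (0.0553) or 3 (0.0515).

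Usp2, a deubiquitinase with a strong daily rhythm in the kidney, was at 72.3, 50.3 and 41.9 FPKM and 77.5, 64.5 and 63.4 FPKM at baseline and at 39.9, 26.4 and 28.5 FPKM and 6.58, 14.7 and 12.8 FPKM after IR, WT before Tet2-/- labels. It fell by 2.85 ± 0.29 in libraries labelled Tet2-/- (adjusted p = 0.000411), with an interaction of −1.96 ± 0.39 (0.0136) that was called without any 1 library. Csnk1e, a kinase that marks PER proteins for degradation, was at 4.52, 5.86 and 3.41 FPKM and 3.79, 3.46 and 2.62 FPKM at baseline and at 3.31, 4.704 and 2.63 FPKM and 9.71, 9.47 and 7.54 FPKM after IR. It rose by 1.18 ± 0.17 in libraries labelled Tet2-/- (adjusted p = 0.00143), with an interaction of 1.66 ± 0.32 (0.0118), also called without any 1 library. Npas2, which can stand in for Clock, was chosen after its values were seen. It was at 0.177, 0.189 and 0.406 FPKM at baseline and at 0.944, 0.783 and 1.23 FPKM after IR and rose by 1.69 ± 0.42 with IR in those labelled Tet2-/- (adjusted p = 0.0148), a call lost without baseline replicate 1 (0.0532) or 2 (0.0561) and, on the fold limit, with limma on log2(FPKM + 1) (0.66). Without WT baseline replicates 2 and 3 together, none of the interactions of Ciart, Hlf, Tef, Usp2 and Csnk1e passed (adjusted p from 0.0736 to 0.187).

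Timeless, a homolog of the fly clock gene with a known role in DNA replication, was the gene called higher in WT kidneys. It was at 0.655, 0.712 and 0.493 FPKM at baseline and at 1.82, 2.49 and 1.38 FPKM after IR, a rise of 1.54 ± 0.25 (adjusted p = 0.0302). The call was lost without WT baseline replicates 1, 2 or 3 (adjusted p = 0.113, 0.0732 and 0.0825) or WT IR replicate 2 (0.0995), and on the fold limit with limma on log2(FPKM + 1) (0.82).

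**Figure D4:**
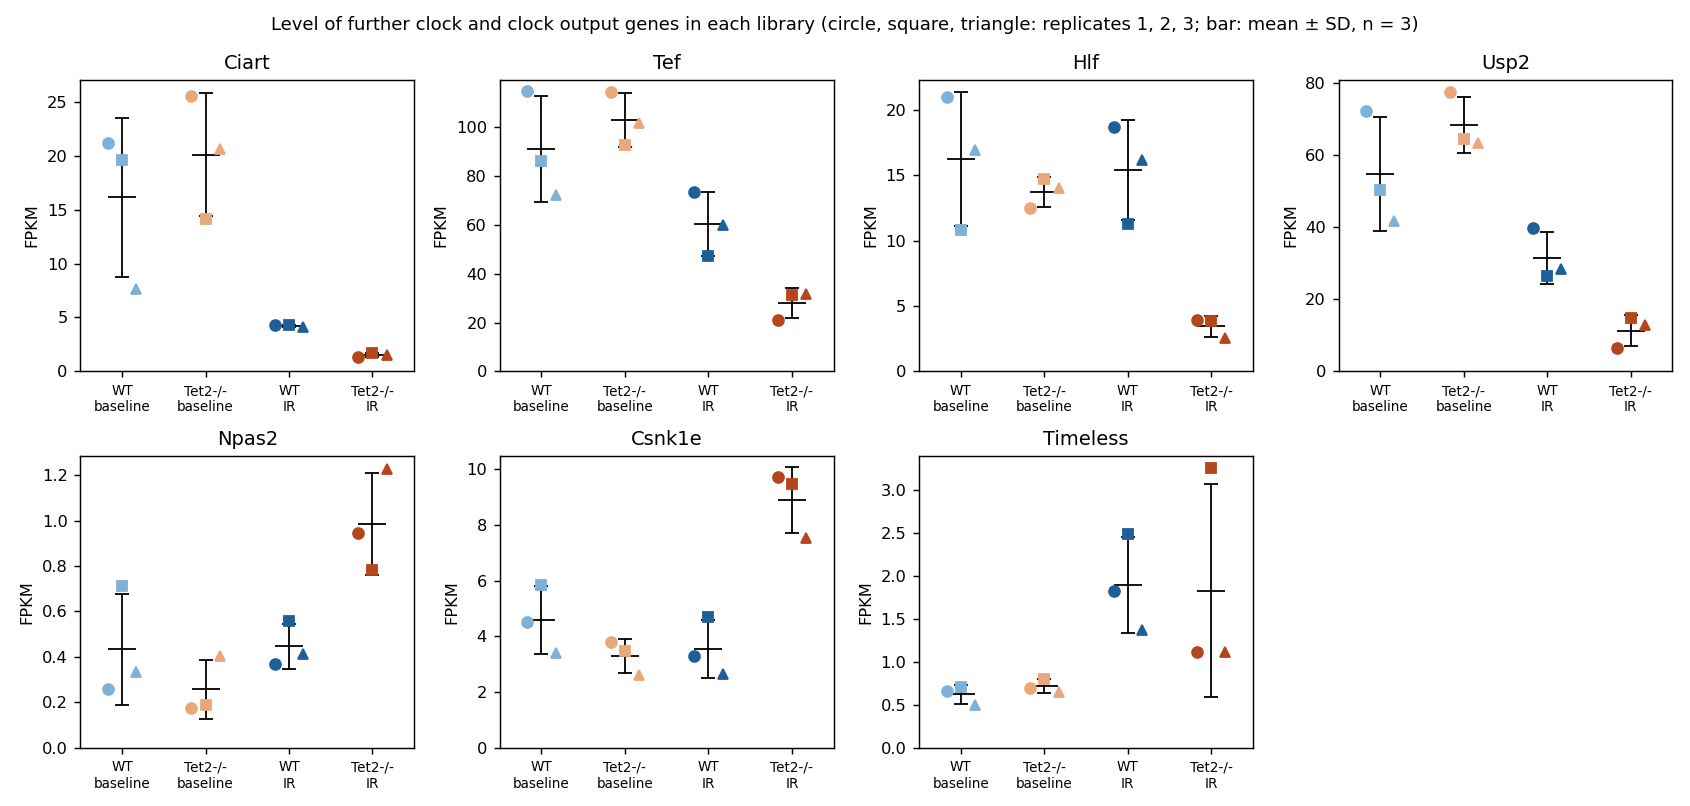
Level in FPKM (linear axes from 0) of 7 further clock and clock output genes in each library (circle, square and triangle for replicates 1, 2 and 3), with the mean ± SD of 3 libraries per group. Ciart, Tef, Hlf and Usp2 are lowest in libraries labelled Tet2-/- after IR, and Npas2 and Csnk1e are highest there.

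Libraries of the same group differed more for some clock genes than for others. The SD within groups on the log2 CPM scale was 0.66 for Cry1 and 0.63 for Arntl, and 16.1% and 18.0% of 16741 genes had a larger one. It was 0.42 for Per1 and 0.37 for Per2, and lowest for Nr1d2 at 0.22, where 63.7% of genes had a larger one. The median over the 10 genes was 0.32 and that over all genes 0.28, with 6 of the 10 above it. Arntl and Cry1 are also the members with the fewest counts. Within WT baseline, the SD was 0.79 for Arntl, 0.65 for Per1 and 0.15 for Dbp.

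**Figure D5:**
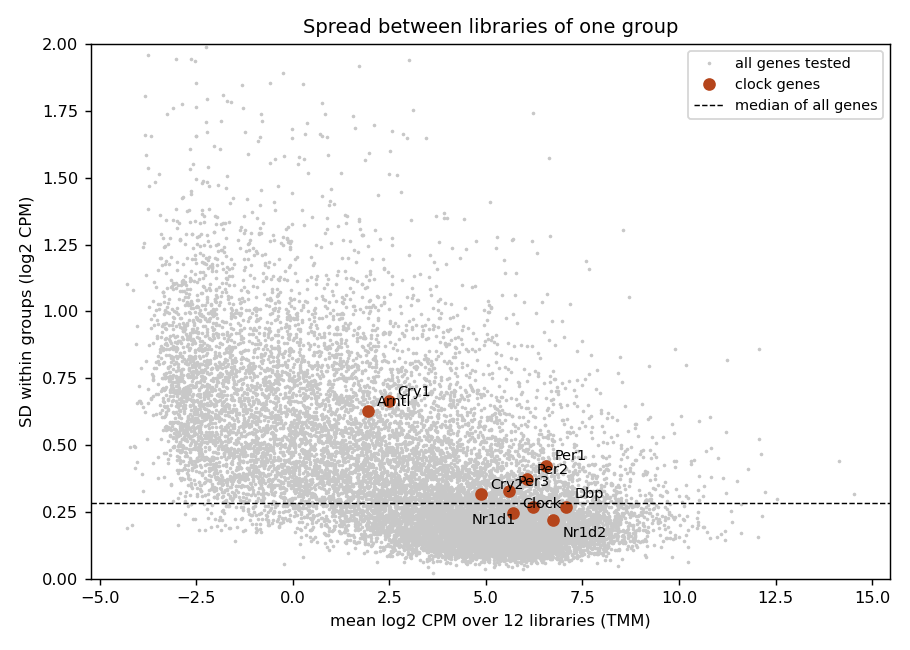
SD within groups (log2 CPM) against mean log2 CPM for all 16741 genes tested (grey) and the 10 clock genes (red), with the median of all genes as a dashed line; 34 genes above 2 on the vertical axis are not drawn. Cry1 and Arntl stand highest among the clock genes, at lower mean levels than the other 8.

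The genes whose pattern over the 12 libraries was most like that of a member were found by the root mean square difference of log2(FPKM + 0.1), each gene centred on its mean, among 12212 genes with a mean of at least 1 FPKM. For Dbp these were Morn2 (0.18), Nme5 (0.22), Spa17, Tmigd1 and Ccpg1os (0.27), while Per3 ranked 32, Per2 464 and Arntl 11415. For Nr1d1 they were Ubald1 (0.23), Thra (0.24), Rlf, Dpp7 and Ypel3 (0.26). Of the members, Per1 ranked 164, Nr1d2 880, Dbp 3204, Per3 4772, Cry2 5371, Per2 6130, Clock 9577, Arntl 10681 and Cry1 11267. For Arntl they were Lbh (0.38), Wnt9a, Mid1ip1, Pim1 and Arhgap23 (0.41), and Clock ranked 580. The libraries share depth and cell composition, so these distances are descriptions only.

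Some members overlap another gene on the opposite strand. Dbp shares 741 bases with Sphk2, and Nr1d1 shares 1075 bases with Thra, a thyroid hormone receptor. The sources used here do not state whether reads were counted by strand. If they were not, reads from the shared bases cannot be assigned to either gene. Sphk2 fell by 1.29 ± 0.15 with IR in libraries labelled Tet2-/- (adjusted p = 0.000620), less than Dbp, and gave −0.45 ± 0.14 in WT (0.126). With limma on log2(FPKM + 1) its fold change was within the limit (−0.98). Thra fell by 1.12 ± 0.15 in libraries labelled Tet2-/- (adjusted p = 0.000983) and gave −0.85 ± 0.18 in WT (0.0572). In libraries labelled Tet2-/-, Thra too was within the fold limit with library sizes alone (−0.89) and with limma (−0.82 and −0.86 at pseudocounts of 1 and 0.1). Cry2 lies over 23417 bases of the antisense transcript D930015M05Rik.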

How the data were processed

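RNA-seq libraries of 12 mouse kidneys (4 groups of 3) were used. Reads had been aligned with STAR (mm9 build) and counted over RefSeq genes by HOMER, per the study's methods and the submitters' processing notes. The authors deposited expected counts without normalization, and FPKM. Counts come in units of 0.5, with 36.0% of values not whole, and were rounded. Of the 24421 symbols, 5569 had more than 1 transcript. Files held 0 sample columns that could not be mapped to a library. The time of collection is not given.

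Each comparison used its own 6 libraries (the interaction all 12), edgeR 4.0.16 in R 4.3.3 with TMM, filterByExpr, the two-sided quasi-likelihood F test and p values adjusted by Benjamini-Hochberg. The SE is the log2 fold change divided by the root of F. Alternatives were DESeq2 1.42.0, limma 3.58.1 on log2(FPKM + 0.1) and log2(FPKM + 1), other normalizations and filters, all deposited transcripts, all 12 libraries in 1 fit, the replicate number as a block, WT baseline replicates 2 and 3 left out, and each library left out. For the genes named beside the 10 members these alternatives were added after seeing the data. The groups' non-overlap was read on TMM-normalized CPM of the libraries compared. The SD within groups and the correlations between libraries used TMM-normalized log2 CPM of all 12 libraries with a prior count of 2. The tests were checked on simulated data. Python 3.11.15 and matplotlib 3.10.9 were used for the figures.

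The 10 members and all lists were chosen with earlier results of these data known. The text names the 10 members, genes overlapping them, and in each list and comparison the called genes with the 3 largest absolute log2 fold changes provided that 1 of the groups had a mean FPKM of 1 or more. Deviations from the group mean were correlated between the baseline and IR libraries of a genotype that carry the same number (0.349, 0.349 and 0.344 in WT, 0.120, 0.350 and 0.202 in those labelled Tet2-/-), although they come from different mice; the pairing rests on these correlations alone. Coordinates are those of the files, counted from 1: of 20760 transcripts whose symbol the annotation holds, 12966 start at an annotated start, and 5 of the 10 members do. Counting depth limits Arntl and Cry1 most. Values of 1 gene of the lists are not reported here.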

Additional observations from a re-analysis of the deposited data

Results flagged for a closer look

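The effect of IR differed between the genotypes, by the interaction term of edgeR's quasi-likelihood test over 12 libraries, for the genes that follow. Among the 10 clock genes these were Dbp (log2 difference −1.73, adjusted p = 0.00723), Per2 (−1.56, 0.0291) and Per3 (−1.48, 0.0248). Among clock and output genes they were Hlf (−2.08, 0.00878), Ciart (−1.97, 0.0238), Usp2 (−1.96, 0.0136), Tef (−1.44, 0.0215) and Csnk1e (1.66, 0.0118). Sphk2, which shares bases with Dbp, gave −0.80 (adjusted p = 0.0323), and its call was lost in 6 of the 12 fits without 1 library, with an adjusted p of up to 0.0705, and with library sizes alone (0.0770) and limma (0.0735 and 0.0690 at pseudocounts of 1 and 0.1). Among genes that respond to glucocorticoids they were Pdk4 (3.46, 0.0462), Zbtb16 (3.40, 0.0455) and Mt2 (2.29, 0.0453), of which Pdk4 and Zbtb16 did not pass with the replicate block (0.0578 and 0.0783). Tet2 itself gave −2.001 (adjusted p = 0.0285), a call lost without WT baseline replicate 2 (0.0560) or 3 (0.0577), or without baseline replicate 2 (0.0584) or IR replicate 1 (0.0527) labelled Tet2-/-, and with limma (0.0613 and 0.0517). With 3 libraries per group, single outlying libraries were not tested for.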

How the results depend on the processing

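Of 1025 values of named genes recomputed under settings other than leaving out 1 library, 933 kept their direction and side of the threshold, 56 no longer passed, 13 newly passed and 23 changed sign, and no called value changed sign. Without 1 library the numbers were 502, 129, 4 and 31 of 666. The number of the 10 genes called for IR in WT kidneys, 1 where 376 of all 16015 genes were called, was 2 with DESeq2 (1073 of 20106), with the replicate block (987 of 16015) and with all 12 libraries in 1 fit (631 of 16741), and 0 without WT baseline replicates 2 and 3 together (1 of 16526). For IR in libraries labelled Tet2-/-, 6 where 3974 of 16359 were called, it was 3 with limma on log2(FPKM + 1) (2256 of 16359). For the interaction, 3 where 1536 of 16741 were called, it was 5 with library sizes alone (1829), 1 with limma on log2(FPKM + 1) (1665) and 0 without WT baseline replicates 2 and 3 together (10 of 17237). The cause was not tested. Without 1 library these counts ran from 0 to 1 for IR in WT, from 4 to 6 for IR in libraries labelled Tet2-/-, from 0 to 4 for the genotypes after IR and from 1 to 4 for the interaction, and they were 0 for the genotypes at baseline.

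No sign that turned belonged to a called value. For IR in WT, Per2 was 0.0303 with library sizes alone, 0.0703 and 0.0794 with limma (pseudocounts 1 and 0.1) and 0.0181 with the block, and Arntl was 0.28 without WT baseline replicates 2 and 3. For IR in libraries labelled Tet2-/-, Cry2 was 0.17 with library sizes alone and 0.17 and 0.20 with limma. At baseline, Per1, Per2 and Per3 were −0.11, −0.17 and −0.13 without WT baseline replicates 2 and 3. After IR, Cry1 was 0.10 with library sizes alone, 0.0186 with the upper quartile and 0.0076 with limma, and Cry2 was 0.0205, and 0.0105 and 0.0114 with limma. In the interaction, Nr1d1 was −0.0385 with DESeq2, −0.0065 with the upper quartile, −0.0257 at a mean FPKM of at least 1, −0.0639 with all deposited transcripts and −0.21 without WT baseline replicates 2 and 3, and Cry2 was −0.0105 with all deposited transcripts. Without 1 library the range crossed 0 for IR in WT in Per2 (−0.15 to 0.27), Cry2 (−0.21 to 0.0641) and Arntl (−0.87 to 0.0187), for IR in libraries labelled Tet2-/- in Cry2 (−0.21 to 0.16), at baseline in Cry1 (−0.87 to 0.0310), Cry2 (−0.23 to 0.0588) and Nr1d2 (−0.24 to 0.0520), after IR in Cry1 (−0.56 to 0.26), Cry2 (−0.21 to 0.12) and Nr1d1 (−0.12 to 0.21), and in the interaction in Per1 (−0.0661 to 0.53), Cry1 (−0.24 to 0.86), Cry2 (−0.13 to 0.21) and Nr1d1 (−0.22 to 0.0863).

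With the replicate block, IR in WT kidneys called 987 of all genes in place of 376, and Per1 passed (adjusted p = 0.0318); no other call of the 10 members changed under the pairing, and of the other named genes Pdk4 and Zbtb16 lost their interaction (0.0578 and 0.0783) and Pdk4 its genotype difference after IR (0.0844). Between the genotypes at baseline, libraries of the same number had correlations of −0.173, −0.150 and 0.0520. The highest with another number were 0.148, 0.209 and 0.025. After IR the same numbers gave 0.000, 0.206 and 0.303, and another number at most 0.226, −0.053 and 0.043. Replicates 2 and 3 after IR thus went most with their own number, and replicate 1 did not. Among all called genes, the share called higher was 62.2% and 50.4% with DESeq2 for IR in WT, 52.3% and 67.2% with library sizes alone for IR in libraries labelled Tet2-/-, 100% of 2 and 6.90% with DESeq2 at baseline, 37.4% and 47.9% with DESeq2 after IR, and 41.3% and 61.7% with library sizes alone in the interaction.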

Other observations

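Glucocorticoid hormone follows both the clock and stress, and a list of genes known to respond to it was examined, of which 16 were tested. In WT kidneys after IR, 1 was called lower, Dusp1, a phosphatase of stress kinases (log2 fold change −3.34 ± 0.33, adjusted p = 0.00870 in edgeR's quasi-likelihood test), and 0 higher, with a median of −0.31 beside −0.03 for all genes, of which 0.887% were called lower and 1.46% higher. In kidneys labelled Tet2-/-, 5 were higher and 5 lower (median −0.29, all genes 0.04, of which 12.7% were called higher and 11.6% lower), among them the metallothionein Mt2 at 4.17 ± 0.39 (adjusted p = 0.000313) and the cell cycle inhibitor Cdkn1a, also on the list of clock output, at 3.75 ± 0.35 (0.000304). At baseline, 0 differed between the genotypes (median −0.17, all genes 0.00, of which 0.0124% were called higher and 0% lower). After IR, 5 were higher and 1 lower in libraries labelled Tet2-/- (median 0.36, all genes 0.04, of which 2.30% were called higher and 3.85% lower), with Pdk4, a kinase that limits glucose oxidation, at 3.57 ± 0.82 (adjusted p = 0.0412). Pdk4 was at 4.245, 7.52 and 8.096 FPKM in WT and at 189, 22.7 and 41.6 FPKM in libraries labelled Tet2-/-, where replicate 1 stood far above the others. Its call was lost in 5 of the 6 fits without 1 library (adjusted p from 0.0563 to 0.135), and without replicate 1 labelled Tet2-/- the difference was 2.20. With limma on log2(FPKM + 1) it did not pass either (2.96, adjusted p = 0.0533). The interaction was positive for 4 and negative for 0 (median 0.63, all genes 0.10, of which 3.79% were called positive and 5.39% negative), but the calls of Pdk4, Zbtb16 and Mt2 were lost in 10, 10 and 9 of the 12 fits without 1 library, with adjusted p values of up to 0.108, 0.112 and 0.112. With the replicate block, the interactions of Pdk4 (adjusted p = 0.0578) and Zbtb16 (0.0783) and the genotype difference of Pdk4 after IR (0.0844) did not pass.

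Genes with the D-box letters in their promoter window, Per2 and Per3 among them, were counted as a description. Of 89 such genes tested for IR in libraries labelled Tet2-/-, 22 were called lower (24.7%, beside 11.6% of all genes) and 8 higher (8.99%, beside 12.7%), with a median log2 fold change of −0.41. In WT kidneys 3 of 87 were called lower (3.45%, beside 0.887%) and 0 higher. Of 88 tested between the genotypes after IR, 9 were called lower (10.2%, beside 3.85%) and 3 higher (3.41%, beside 2.30%). Of 1523 genes with the E-box letters, 158 were called lower with IR in libraries labelled Tet2-/- (10.4%) and 183 higher, with a median of 0.06. Shares above those of all genes were not limited to D-box genes. Of 321 genes with the REV-ERB element core, 6 were called lower with IR in WT kidneys (1.87%) and 11 higher (3.43%, beside 1.46%). In libraries labelled Tet2-/-, 47 of 336 were called lower (14%) and 52 higher (15.5%). For the cAMP response element these were 2 (0.419%) and 10 (2.10%) of 477 in WT. In libraries labelled Tet2-/- they were 37 (7.61%) and 61 (12.6%) of 486. No test was run on these shares, and the letters mark no binding.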
